A study of Mus musculus with 474 samples.

Results

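The cytosolic ribosomal protein genes were followed across skeletal muscle libraries of Diversity Outbred mice, 1 library per animal. A gene was a member when its symbol was Rpl or Rps followed by a number and at most 1 of the letters a, l, x and y, or was Rpsa, Rplp0, Rplp1 or Rplp2. Of the 20612 genes in the tables, 81 met this rule, 49 named for the large and 32 for the small subunit. Symbols with -ps, which mark annotated pseudogenes, were not members. Rpl10l is not analysed here. The stock goes back to 8 inbred founders and is kept by outcrossing, so each animal has a genome of its own. All animals were given a high-fat, high-sugar (HFHS) diet, and sex was taken from the labels. There was no group on another diet, and age and muscle are not in the labels and come only from the study's methods, which name the gastrocnemius and a common age at harvest. A number in the titles (17, 18, 19, 21 or 23) was read as the generation of the stock, which is an assumption, and the study's methods name fewer generations than the titles hold. These generations held 48 females and 46 males, 45 and 48, 49 and 50, 46 and 47, and 47 and 48. Library numbers were divided into 5 blocks of consecutive numbers with 96, 96, 96, 95 and 91 libraries.

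Each cytosolic ribosome holds a small subunit, which reads the messenger RNA, and a large subunit, which joins amino acids, and most of their proteins are needed in single copies. Making them is among the largest costs of a growing cell. Vertebrate ribosomal protein messages begin with a C followed by a run of pyrimidines, the terminal oligopyrimidine (TOP) tract, through which the kinase complex mTORC1 controls their translation as a group. TOP control acts mainly on translation, which RNA levels do not measure. A few ribosomal proteins have paralogues with tissue-restricted expression. The best known in striated muscle is Rpl3l, which can take the place of Rpl3 near the catalytic centre of the large subunit. Ribosomal protein genes have also left many processed pseudogenes in mammalian genomes, and their sequences can be close to those of the genes themselves.

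The tract stands at the start of transcription, and start sequences are shown for some of the members that head the sex comparison or belong to the paralogue pairs described next. They are from RefSeq (build GRCm38.p6), run from 30 bases before the annotated start to 20 bases from it, and carry the TOP-like run, where 1 was found, in capitals. The run was defined as at least 5 pyrimidines beginning with C within 5 bases of the annotated start.
Rpl31, chr1:39367821-39367870, plus strand: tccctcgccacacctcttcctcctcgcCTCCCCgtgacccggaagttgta
Rps21, chr2:180257349-180257398, plus strand: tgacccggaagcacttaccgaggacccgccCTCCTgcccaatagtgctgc
Rps10, chr17:27635225-27635274, minus strand: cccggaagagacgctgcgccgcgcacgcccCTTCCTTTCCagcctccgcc
Rpl39, chrX:37085203-37085252, minus strand: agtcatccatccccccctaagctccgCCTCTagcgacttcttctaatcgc
Rps27, chr3:90213629-90213678, minus strand: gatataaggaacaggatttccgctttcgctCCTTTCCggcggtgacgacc
Rps27l, chr9:66946056-66946105, plus strand: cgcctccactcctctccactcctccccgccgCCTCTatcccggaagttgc
Rpl27, chr11:101442215-101442264, plus strand: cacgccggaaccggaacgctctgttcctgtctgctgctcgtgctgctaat
Rpl3l, chr17:24727796-24727845, plus strand: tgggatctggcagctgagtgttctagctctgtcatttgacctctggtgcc
The windows of Rpl27 and Rpl3l held no such run. Rps21, Rps27l and Rpl3l each have a second annotated start, not shown, whose window held none. The windows of Rps4x, Rpl39l and Rpl6, also not shown, held none. Rpl3, Rps27a and Rpl7 head the sex comparison as well.

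Over all 71 RefSeq promoters that matched 59 members, 30 held a TOP-like run at the start (42.3%), against 18.3% of all 32851 promoters in the table. Each promoter ran from 250 bases before to 50 after the start and was searched on both strands for the letters of 4 motifs. CCGGAAG, the core bound by ETS factors, was in 36.6% of the members' promoters and in 8.86% of all promoters. The YY1 letters AAGATGG were in 15.5% against 6.34%. The SP1 letters GGGCGG were in 57.7% against 35.7%. The letters TATAAA were in 8.45% against 13.6%. These shares describe letters in a window, with no test of binding, and they are not compared with expression.

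Levels are given as CPM, an animal's expected counts for a gene scaled to the library total, or in CPM per kilobase of annotated transcript where genes are compared. Totals per library ran from 35.9 to 165.7 mega-counts (M) of expected counts, with a median of 79.3 M. At this depth the median count was 2 for Rpl39l, 3.79 for Rpl6l and 87 for Rps4l, and 517.8 or more for every other member. The 81 members together took a median of 0.873% of all counts, from 0.444% to 1.565%. Large-subunit members took a median of 0.527% and small-subunit members 0.348%. The 8 general skeletal muscle markers summed to between 58841 and 99815 CPM, so that markers of the labelled tissue were high in every library.

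By level per kilobase the highest members were Rps2 (407.8 CPM per kilobase), the stalk protein Rplp1 (371.2), Rpl23a (358.6), Rps15 (286.1) and the stalk protein Rplp0 (283.3). These levels are medians over all libraries. The lowest were Rpl39l (0.030), Rpl5 (4.47), Rpl12 (4.84), Rpl27 (9.52) and Rps20 (15.9). Rpl5 binds the 5S ribosomal RNA and Rpl12 forms the base of the stalk, so both are core proteins that every ribosome needs. Their rows were low while rows that share part of their sequence were high, as described under shared sequence. The annotated transcript of Rps20 is 3706 bases and that of Rps15a 5130 bases, long for this family, which lowers a level per kilobase. The order was therefore not read as an order of protein supply.

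**Figure D1:**
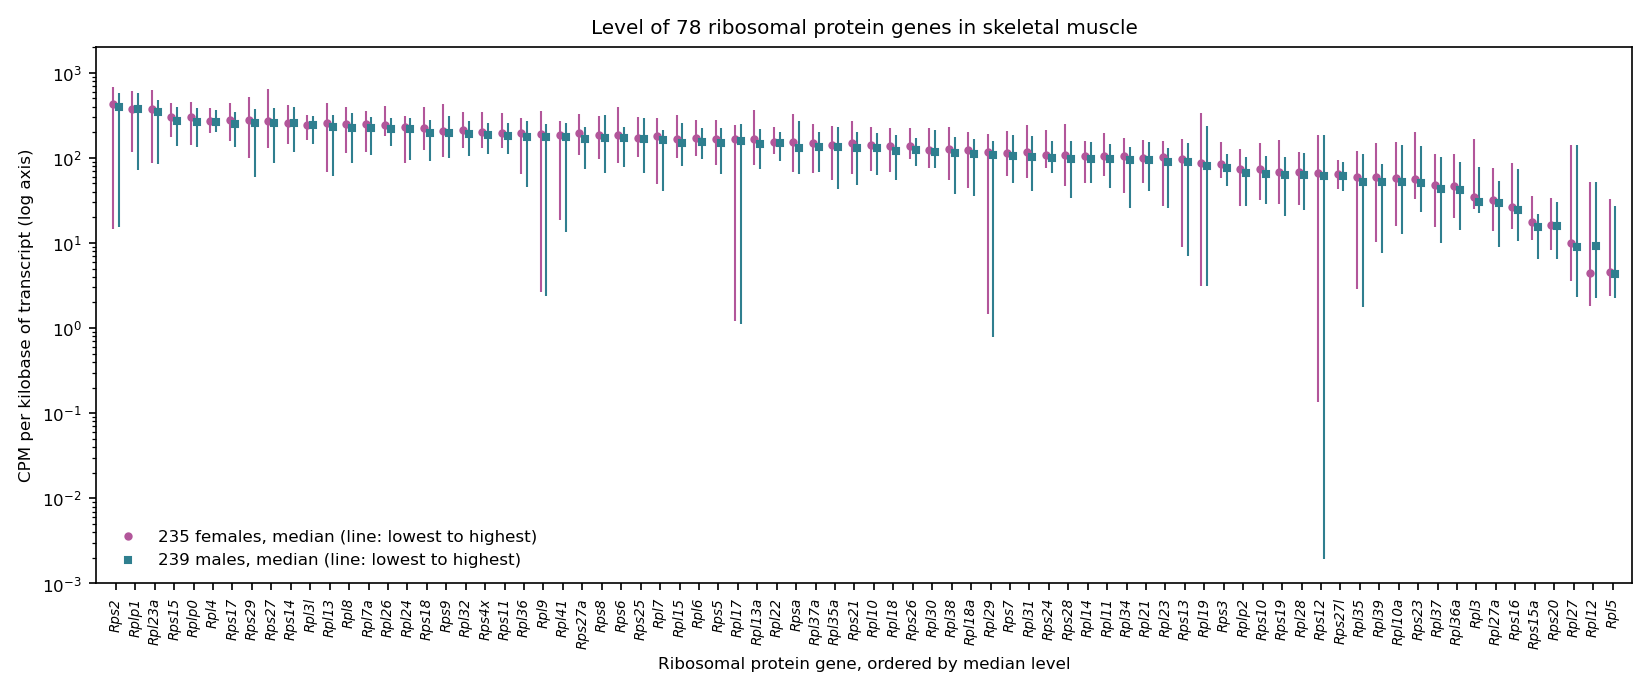
Median level of 78 ribosomal protein genes in CPM per kilobase of annotated transcript (log axis), with females as circles, males as squares and lines from the lowest to the highest library. Rps2, Rplp1 and Rpl23a stand at the left, Rpl27, Rpl12 and Rpl5 at the right, and some genes such as Rpl9, Rpl19 and Rps12 have long lines, the longest that of Rps12.

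Rpl3l (chromosome 17, 24727820 to 24736143) was the 4th most abundant member by CPM, and Rpl3 (chromosome 15, 80077791 to 80091868) was the 65th. Rpl3l ran from 202 to 438.9 CPM over the libraries with a median of 333.9, and Rpl3 from 30.4 to 227.1 with a median of 44.1. The ranges did not overlap apart from the single library with the highest Rpl3. Per kilobase the medians were 242.8 for Rpl3l and 32.7 for Rpl3. Of the summed counts of the pair, Rpl3l held a median of 88.3%, from 57.2% to 92.0%. Of the 100-base words of Rpl3, 79.4% also occurred in transcripts of 7 other genes, and of those of Rpl3l 0%. No row held enough of Rpl3 to be added to it, and the part of this in the share was not tested. The median share was 87.7% in females (57.2 to 90.8%) and 88.8% in males (76.8 to 92.0%). In proteins translated from the annotated transcripts, 75.98% of aligned positions were identical between Rpl3 and Rpl3l.

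The other paralogues within the rule held less of their pair. Rps27l, a relative of the zinc-binding protein Rps27, held a median of 25.9% of the pair's counts (13.5 to 42.1%), and the proteins differed at 3 of 84 positions. Rps4l, annotated as a transcribed processed pseudogene, held 0.576% of the counts of Rps4l and the X-linked Rps4x. Rpl39l, a paralogue known from the male germ line, held 0.0676% of the counts of the Rpl39 pair, had 0 counts in 192 libraries and was removed by the filter on low counts. Rpl6l, annotated as a processed pseudogene, had a median of 0.0448 CPM. Among these pairs only that of Rpl3 was led by its paralogue in summed counts. Outside the rule, Rpl36al was also above its partner Rpl36a, with medians of 63.7 CPM in females and 53.0 in males against 22.6 and 20.4 (not per length). With its sharing row Rpl36a had a median of 43.9 CPM over all libraries.

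Rpl3 and Rpl3l varied weakly against each other over all libraries. After sex and generation were removed from the deposited scores, Pearson's r between the pair was -0.19 (permutation test with 100000 resamples, 2-sided, p = 4e-05) and Spearman's rho was -0.10 (p = 0.0305), over all libraries and as the only relation tested. Among the 3160 pairs of members this was the lowest r. Within females r was -0.33 (p = 1e-05 by permutation, the smallest that the resamples can give), and within males it was 0.04 (permutation p = 0.503). The difference between the sexes was not tested. In the 5 library blocks r was 0.05, -0.31, -0.16, -0.32 and -0.37, with permutation p of 0.631, 0.00168, 0.112, 0.00176 and 0.00028. Without the 2 libraries farthest from the median of Rpl3, r was -0.14 (permutation p = 0.00229) and rho -0.08 (p = 0.0717).

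**Figure D2:**
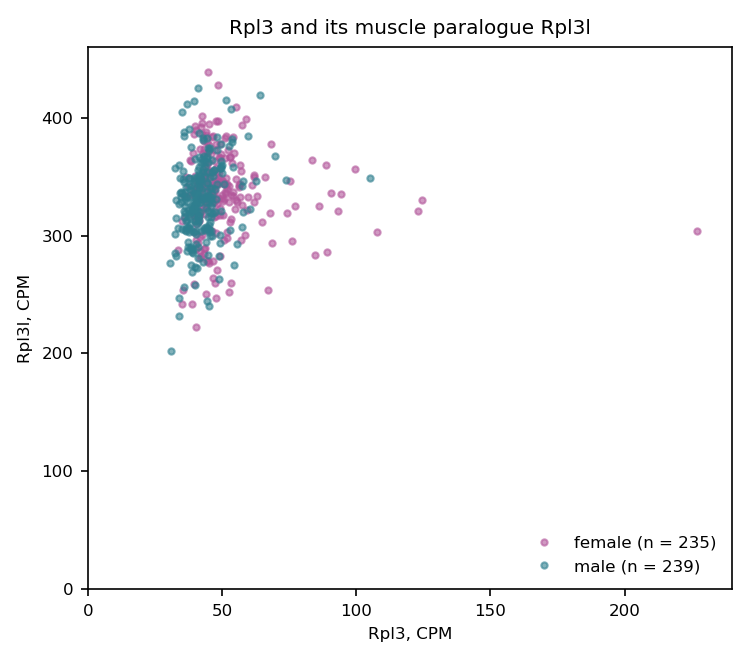
Rpl3 against Rpl3l in CPM, each point 1 library, coloured by sex. The median library sits at 44.1 CPM of Rpl3 and 333.9 of Rpl3l, and the tail of high Rpl3 is mostly female, up to DO191 at 227.1 CPM.

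Libraries DO191 (female, generation 18) and DO289 (male, generation 19) stood apart. DO191 had the highest summed share of the members (1.565%, next 1.167%) and was the highest library for 52 of the 81 members. Its summed level of 10 lymphocyte markers was 594.1 CPM, against 278.1 in the next library and a median of 3.86, and its summed level of 10 macrophage markers was 403.96 CPM, against 266.7 in the next. Its Rpl3 was 227.1 CPM and its Rpl3l share 57.2%, the extremes of both. DO289 had the lowest summed share (0.444%, next 0.540%) and was the lowest library for 50 members, with lymphocyte markers at 6.36 CPM. In bulk muscle, fewer cells of a type and less RNA per cell cannot be told apart. In 5 further libraries the sex-linked RNA departed from the labelled sex, and counts of the members' sex comparison without them and without DO191 are given below.

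Between the sexes, ribosomal protein RNA was lower in males. The summed share of the members was 0.540% at the lowest, 0.925% at the median and 1.565% at the highest in females, and 0.444%, 0.843% and 1.133% in males. The ranges overlapped widely, and 87.4% of males lay below the female median. In each block the male median was below the female one, with 0.853% and 0.808% in block 1, 0.929% and 0.817% in block 2, 0.929% and 0.860% in block 3, 0.924% and 0.863% in block 4, and 0.947% and 0.865% in block 5 (female first).

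**Figure D3:**
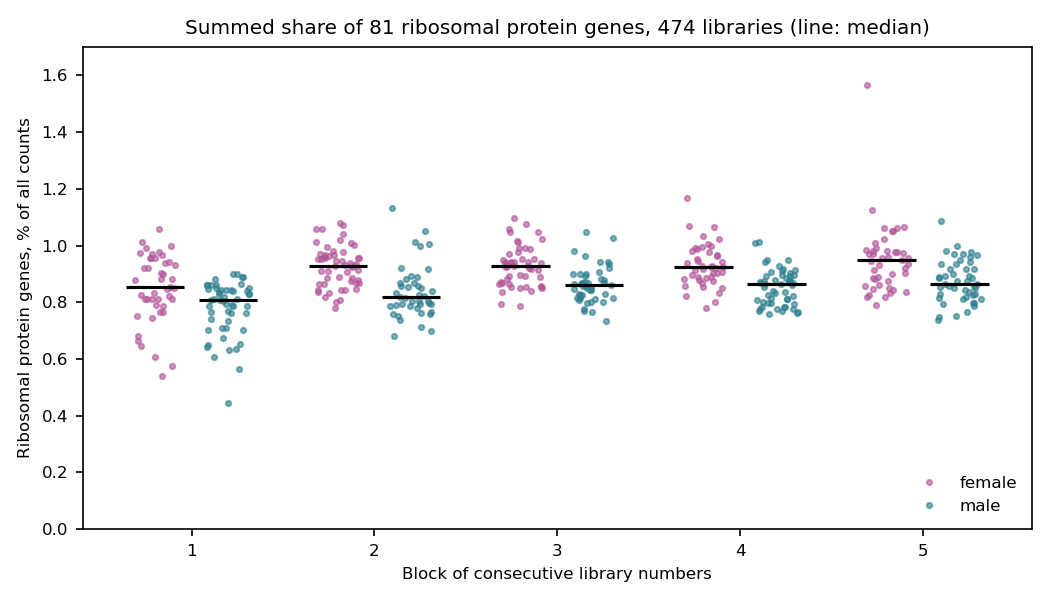
Summed share of the 81 ribosomal protein genes in all counts of a library (%), by block of library numbers and sex, each point 1 library and each line a median. Male medians lie below female medians in each of the 5 blocks, block 1 reaches lowest, at 0.444%, and DO191 stands alone at 1.565%.

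Of the 80 members tested with edgeR's quasi-likelihood test and Benjamini-Hochberg adjustment, 53 were lower in males and 0 higher at an adjusted p under 0.05. Among all 18823 genes tested, 30.6% were lower and 24.4% higher. The log2 difference (male minus female) was negative in 75 members and had a median of -0.11, or -7.18%, against -0.01 over all genes. It was small in every member, and none reached 1.5-fold, as 997 genes did. Both subunits took part, with 33 of 48 large-subunit members and 20 of 32 small-subunit members lower, each with a median of -0.11. Past the threshold the differences ran from -0.35 in Rpl27 to -0.04 in Rpl4.

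The 8 largest falls past the threshold included 5 large-subunit members, Rpl27, Rpl3, Rpl39, Rpl31 and Rpl7, and 3 small-subunit members, Rps21, Rps27a and Rps10. Levels here are CPM on totals scaled by TMM, edgeR's normalization factor, and are given as lowest, median and highest library. Rps27a, made as a fusion of ubiquitin with a small-subunit protein, ran at 75.6, 123 and 161 CPM in females and 54.5, 108 and 138 in males (log2 difference -0.18 ± 0.01 (SE), edgeR adjusted p = 1.94e-36). Its ranges overlapped, but 96.2% of males lay below the female median. Rpl3, which lies near the peptidyl transferase centre, ran at 35.2, 46.3 and 176 CPM in females and 33.2, 41.8 and 94.3 in males (-0.21 ± 0.02, edgeR adjusted p = 7.85e-16). The lowest libraries of both sexes were alike and the female range reached further up. Its paralogue Rpl3l was at 231.7, 332.5 and 454.1 CPM in females and 231.5, 335.1 and 442.1 in males, with a difference of 0.01 ± 0.01 (edgeR adjusted p = 0.612), so the pair did not share the call.

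Rpl31, a protein at the exit of the polypeptide tunnel, ran at 37.9, 72.0 and 154 CPM in females and 29.7, 64.6 and 120 in males (-0.19 ± 0.02, edgeR adjusted p = 1.26e-14). Rps21, a small-subunit protein, ran at 28.0, 58.8 and 84.2 CPM in females and 21.4, 51.3 and 78.7 in males (-0.18 ± 0.02, edgeR adjusted p = 3.22e-14). Rps10, a small-subunit protein of the 40S head, ran at 29.8, 65.2 and 102 CPM in females and 29.2, 57.6 and 82.6 in males (-0.16 ± 0.02, edgeR adjusted p = 1.71e-17). The ranges of these 3 genes overlapped between the sexes, with 77.0%, 82.4% and 89.5% of males below the female median.

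The other 3 of the largest falls rested on rows with a wide spread. Rpl27 ran at 2.26, 6.001 and 86.9 CPM in females and 1.61, 5.49 and 85.4 in males (-0.35 ± 0.13, edgeR adjusted p = 0.0151). Its ranges were nearly the same in both sexes, and with the rows that share its sequence added the difference was -0.11 ± 0.01 (edgeR adjusted p = 4.32e-12). Without block 1 and without the added rows, Rpl27 did not pass (-0.22, edgeR adjusted p = 0.187), and of the 53 members 50 kept the call. Rpl39, a small protein of the exit tunnel, ran at 6.33, 35.9 and 70.1 CPM in females and 4.62, 32.1 and 48.4 in males (-0.21 ± 0.08, edgeR adjusted p = 0.0118). Of its libraries, 52 female and 70 male ones lay below 20 CPM, apart from the bulk. With the counts of the pseudogene row Rpl39-ps added the difference was -0.11 ± 0.02 (edgeR adjusted p = 4.38e-08), and within block 2 the row alone was at 0.0132 (edgeR adjusted p = 0.969). Rpl7 ran at 53.7, 210.4 and 277.96 CPM in females and 50.4, 192 and 269.5 in males (-0.16 ± 0.04, edgeR adjusted p = 0.000542), and with sharing rows added its standard error fell from 0.04 to 0.01 around a difference of -0.15.

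**Figure D4:**
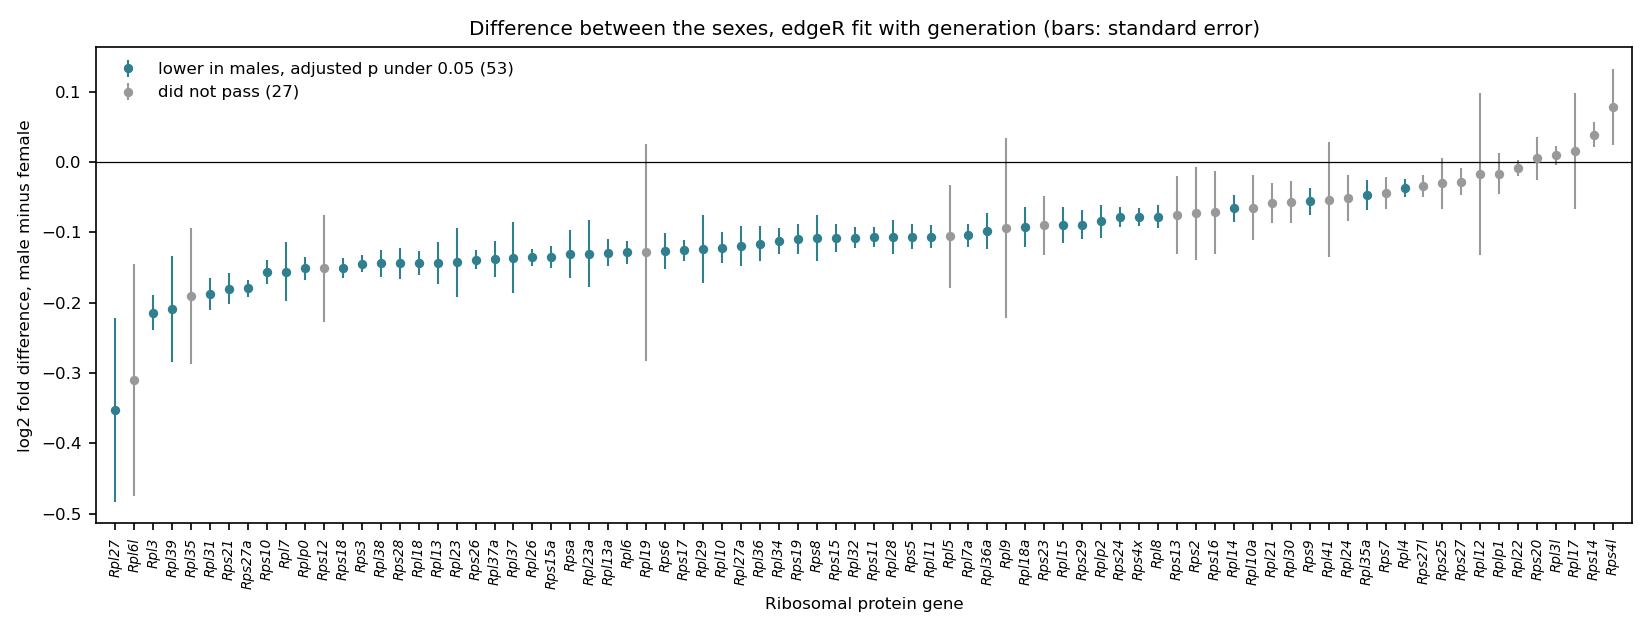
Log2 fold difference (male minus female) of 80 ribosomal protein genes with standard errors, from the edgeR fit with generation as covariate, ordered by size. The 53 members past the threshold all lie below 0, from Rpl27 at -0.35 to differences of a few hundredths, and the 5 members above 0 did not pass.

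All 4 X-linked members were lower in males. Rpl39 was given above, Rpl10 was at a median of 113 CPM in females and 104 in males (-0.12 ± 0.02, edgeR adjusted p = 1.45e-07), Rpl36a at 22.5 and 20.5 (-0.10 ± 0.03, edgeR adjusted p = 0.000411), and Rps4x at 193 and 182 (-0.08 ± 0.01, edgeR adjusted p = 4.47e-08). The median over these 4 genes was -0.11, and 49 of 76 autosomal members, with the same median, were lower too. Of the paralogues, Rps27 (-0.03 ± 0.02, edgeR adjusted p = 0.219), Rps27l (-0.03 ± 0.02, edgeR adjusted p = 0.0618) and Rps4l (0.08 ± 0.05, edgeR adjusted p = 0.218) did not pass. Rpl22, an RNA-binding large-subunit protein, was at -0.01 ± 0.01 (edgeR adjusted p = 0.515). Its relative outside the rule, Rpl22l1, was higher in males (0.06 ± 0.03, edgeR adjusted p = 0.0292). Rps14 was at 0.04 ± 0.02 (edgeR adjusted p = 0.0552) and passed as higher in 4 of the 15 alternatives that kept all groups, which are with block as a term, without block 1, without the libraries of departing sex-linked RNA and without DO191. It is named after its values were seen.

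Counts of members lower in males ran from 45 to 69 over these 15 alternatives, and 43 of the 53 were lower in each of them and in the fit reported. The lowest count, 45, came with marker scores of fibre and cell types as terms, where 44 of the 53 kept the call, the members' median was -0.10 and 22.5% of all genes were lower. In that fit Rpl3 was at -0.11 (edgeR adjusted p = 5.62e-07) and Rps4x at -0.04 (edgeR adjusted p = 0.0180), smaller than the -0.21 and -0.08 without those terms, while Rpl27 (-0.15), Rpl39 (-0.16), Rpl7 (-0.12) and Rpl36a (-0.06) no longer passed (edgeR adjusted p = 0.490, 0.203, 0.0740 and 0.153). With totals unscaled by TMM, 63 were lower and 0 higher, while 39.7% of all genes were lower and their median was -0.05. The highest count, 69, came when rows that share sequence with a member were added to it, where 31.1% of all genes were lower. Without DO191, 52 were lower, where 5563 of 18823 genes were. Without the libraries of departing sex-linked RNA, 52 were lower as well, where 5710 of 18823 genes were. Within the generations 35, 34, 19, 30 and 17 members were lower, where 11.1%, 13.2%, 10.2%, 12.7% and 13.2% of all genes were. Within the blocks 23, 32, 27, 34 and 32 members were lower, against 10.5%, 10.8%, 12.2%, 15.7% and 12.6% of all genes, and 50 members had a negative difference in each generation and block.

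Cell type markers moved with sex as well. All 10 lymphocyte markers were lower in males (median log2 difference -1.83), and their summed level was 1.66, 4.18 and 594.1 CPM in females and 1.51, 3.64 and 179 in males (lowest, median, highest). The medians of this sum lay close together, and the highest libraries were at 594.1 (DO191) and 278.1 CPM. The -1.83 is therefore not the difference of typical libraries, and its value without DO191 is not given here. All 9 slow-fibre markers were lower (median -0.45, summed 672.1, 3889 and 10941 CPM in females and 905, 2658 and 9392 in males). Of 9 adipocyte markers 8 were lower and 1 higher (median -0.55, summed 656.4, 1902 and 3709 CPM in females and 644.6, 1241 and 2545 in males). Of 10 macrophage markers 2 were lower (summed 52.7, 109 and 403.96 CPM in females and 41.8, 103 and 220 in males). Satellite cell markers (3 of 8 lower, 3 higher) and fibro-adipogenic progenitor markers (6 of 9 lower, 2 higher) moved in both directions. Of Schwann cell markers 2 of 5 were lower, and of endothelial markers 7 of 8 and of erythroid markers 3 of 5 were higher. Fast-fibre markers had 4 lower and 6 higher of 12, and general skeletal muscle markers had 1 lower and 6 higher of 8. No marker was at 0 in all libraries. With scores of 10 of these lists as terms in the fit the members' median was -0.10, as given above, and the part of each cell type on its own was not tested.

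Genes that work with the ribosome moved in both directions. Of 6 ribosomal proteins outside the rule, 2 were lower and 1 higher, with a median log2 difference of -0.05. Rpl36al, whose protein is identical to that of Rpl36a over 106 residues, was lower in males (-0.24 ± 0.02, edgeR adjusted p = 2.81e-34), as was Rack1, a small-subunit protein that docks signalling kinases (-0.08 ± 0.01, edgeR adjusted p = 2.93e-06). Of 40 translation factors 15 were lower and 7 higher (median -0.02), led by the X-linked initiation factor Eif2s3x (-0.63), the exchange factor of elongation Eef1b2 (-0.24) and the initiation factor subunit Eif3k (-0.14), all lower in males. Of 12 other TOP messages 3 were lower and 2 higher (median -0.00), among them Gas5 (0.09) and Snhg8 (0.06), which host small nucleolar RNAs, and the histone chaperone Nap1l1 (-0.06). Of 60 ribosome biogenesis genes tested, 34 were lower and 10 higher (median -0.04), led by Nle1 (0.26), a factor of large-subunit assembly, the nucleolar methyltransferase Fbl (-0.17) and the RNA polymerase I subunit Polr1b (-0.16). Of 23 genes of mTORC1 and TOP control, 7 were lower and 6 higher (median -0.01), led by Mycn (-1.73) and Myc (-0.41), transcription factors that promote ribosome production, and by Sesn1 (-1.01), a leucine sensor upstream of mTORC1. Over all genes the median was -0.01 and 30.6% were lower, so the translation factors and TOP messages stood near the background and 34 of 60 biogenesis genes stood above it.

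No member passed the test between generations. Of the 80, 0 were past the threshold (edgeR's quasi-likelihood test, smallest adjusted p = 0.0872), where 7.56% of all genes did. At an unadjusted p under 0.05 there were 7 members and 3720 of all 18823 genes. With sharing rows added there were 21 members and 3735 of 18662 genes. The count past the threshold was also 0 with limma and under every other alternative run. The largest ranges of mean log2 CPM, with sex removed, were in Rpl19 (0.61 log2), Rpl9 (0.47), Rpl6l (0.38), Rpl35 (0.35) and Rpl12 (0.27). These are rows of wide spread or, in Rpl6l, of almost no counts. For a sex difference that varies between generations, 0 of 80 members were past the threshold (smallest edgeR adjusted p = 0.598, in Rps23), against 0.531% of all genes. There were 4 members at an unadjusted p under 0.05, against 1123 of all 18823 genes. With limma 0 members and 0 of all genes were called.

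The library blocks, in contrast, differed in 51 of 80 members (edgeR's quasi-likelihood test), against 47.4% of all genes. Block 1 was low, with 44 of the 51 at their lowest level there, the 10 lowest summed shares of all libraries in it, and a median share of 0.823% against 0.880%, 0.885%, 0.884% and 0.893% in blocks 2 to 5. How many of all genes were lowest in block 1 was not computed, so the 44 are not read as particular to the members. The median range of mean log2 CPM between blocks was 0.19 over the members. In the coefficients of the edgeR fit it was 0.175 over the members and 0.180 over all genes. Without block 1, 33 of 80 members differed, against 18.2% of all genes. With sharing rows added the count was 74 of 80, where 47.5% of all genes differed. The block was read from library numbers alone, and what it stands for is not given in the sources used here.

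Rps2, which lies at the entry of the messenger RNA channel, had block medians of 306.1, 354.4, 448.4, 453.2 and 461.7 CPM (TMM-scaled, range of mean log2 CPM with sex and generation removed 0.54 log2, edgeR adjusted p = 1.89e-07). Rpl13, named after its values were seen, had medians of 159, 162, 194, 198 and 198 CPM (0.47 log2, edgeR adjusted p = 2.83e-29). Both genes were lower in blocks 1 and 2 than in the other 3. Rps21 had medians of 47.9, 54.8, 56.3, 53.7 and 61.6 CPM (0.41 log2, edgeR adjusted p = 3.68e-31), lowest in block 1 and highest in block 5. The other large ranges were in Rpl19 (0.81 log2, edgeR adjusted p = 0.289), Rpl9 (0.57, edgeR adjusted p = 0.803) and Rps12 (0.48, edgeR adjusted p = 0.409), which did not pass, and in Rpl6l (0.62, edgeR adjusted p = 0.0242), at a median of 0.0448 CPM.

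Counted on their own rows, members had a median SD above that of all genes on the deposited score. A few members varied by orders of magnitude. Reads shared by similar sequences are divided between rows, and the comparison with all genes was not made on sums with sharing rows. The SD of the score after removing sex and generation had a median of 0.244 over the members and 0.204 over all genes tested. Of the members, 52 of 80 lay above the latter. The score narrows differences of the typical gene more than those of the members. The median range between blocks over all genes was 0.082 on the score and 0.180 in edgeR's log2. Over the members it was 0.140 and 0.175. The median SDs are therefore not on a like scale. The largest SDs were those of Rpl19 (1.81), Rpl9 (1.77), Rpl27 (1.24), Rpl35 (1.19) and Rpl17 (1.19). The smallest were those of Rpl22 (0.121), Rps3 (0.129), Rpl26 (0.133), Rps27a (0.133) and Rpl4 (0.138). The order was not one of abundance alone, since Rpl9 and Rpl26 had medians of 135 and 120 CPM.

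The wide rows fell into separate bands of libraries. Rpl19 ran from 2.35 to 252.03 CPM with a median of 62.3, and 88 female and 95 male libraries lay below 20 CPM. Rpl9 ran from 1.73 to 257.97 CPM with a median of 135, and 41 female and 42 male libraries lay below 20. Rpl27 ran from 1.41 to 86.9 CPM with a median of 5.84, and 130 female and 144 male libraries lay below 20. In these genes the low band held both sexes in like numbers.

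Many of these genes share their sequence with other rows of the table. Over the 79 members with an annotated transcript, a median of 39.8% of their 100-base words also occurred in transcripts of other genes, 33 members shared over 50%, and 8 shared none. For 65 members at least 1 other row held 10% or more of their 50-base words. Of these sharing rows 19 are protein-coding genes with such a stretch in an annotated transcript, 3 are of other types, and all the rest are processed pseudogenes. The 102 -ps rows of the table held counts equal to 10.5% of the members' own in the median library (6.09 to 16.8%). The reads had been aligned to the transcripts of all 8 founders at once, and 14.1% of the members' expected counts were whole numbers (within 1e-06), the others being fractions.

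When the counts of the sharing rows were added to the member, the spread became smaller in most members, and by far the most in the widest rows. A sum with a larger and steadier row has a smaller SD by arithmetic, so the smaller SDs describe the sums and not the member alone. The SD of log2(CPM + 1), with sex and generation removed, fell in 59 of these 65 members, and its median over them went from 0.283 to 0.185. Rpl19 with its copy Rpl19-ps11 ran from 92.8 to 253.3 CPM with a median of 130, and its SD went from 1.89 to 0.153. Rpl9 with its sharing rows, led by Rpl9-ps6, ran from 67.5 to 258.1 CPM (SD 1.85 to 0.199). Rpl27 with its rows, led by Rpl27-ps3, ran from 42.2 to 139 CPM (SD 1.32 to 0.180). No library of these genes was then below 20 CPM. In each, the member and its sharing rows were high in different libraries (Pearson r of -0.80, -0.89 and -0.64 between them, given as a description over all libraries).

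In 13 members the sharing rows held more counts than the member's own. For Rpl12 they held 96.3% of the sum, led by Gm10275, and the level went from 6.02 to 146 CPM at the median. For Rpl5 they held 95.98%, led by Gm15500, and the median went from 9.13 to 220.6 CPM. For Rpl27 they held 93.0%, and the median went from 5.84 to 83.2 CPM. Among other wide rows the SD was also smaller with the sums, in Rpl35 (52.6 to 95.4 CPM, SD 1.26 to 0.144), Rpl41 (98.4 to 110 CPM, SD 1.09 to 0.189), Rps2 (407.01 to 432.1 CPM, SD 0.915 to 0.298) and Rps12 (31.4 to 69.7 CPM, SD 0.873 to 0.257).

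Rpl17 was an exception among the widest rows. It kept an SD of 1.12 of 1.25 with 7 sharing rows, and 19 libraries stayed below 20 CPM of 24. Rpl39 had no row that reached 10% of its 50-base words. Its SD was 0.879, with 122 libraries below 20 CPM. With Rpl39-ps, named as its pseudogene, Rpl39 ran from 20.05 to 90.7 CPM with a median of 38.2, and the SD was 0.219. Across 78 members the residual SD and the share of 100-base words found in other genes had a Spearman rho of 0.40, given as a description across genes that share libraries. Which founder haplotype each animal carried at these genes is not in the tables used here, and its part in the bands was not tested.

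**Figure D5:**
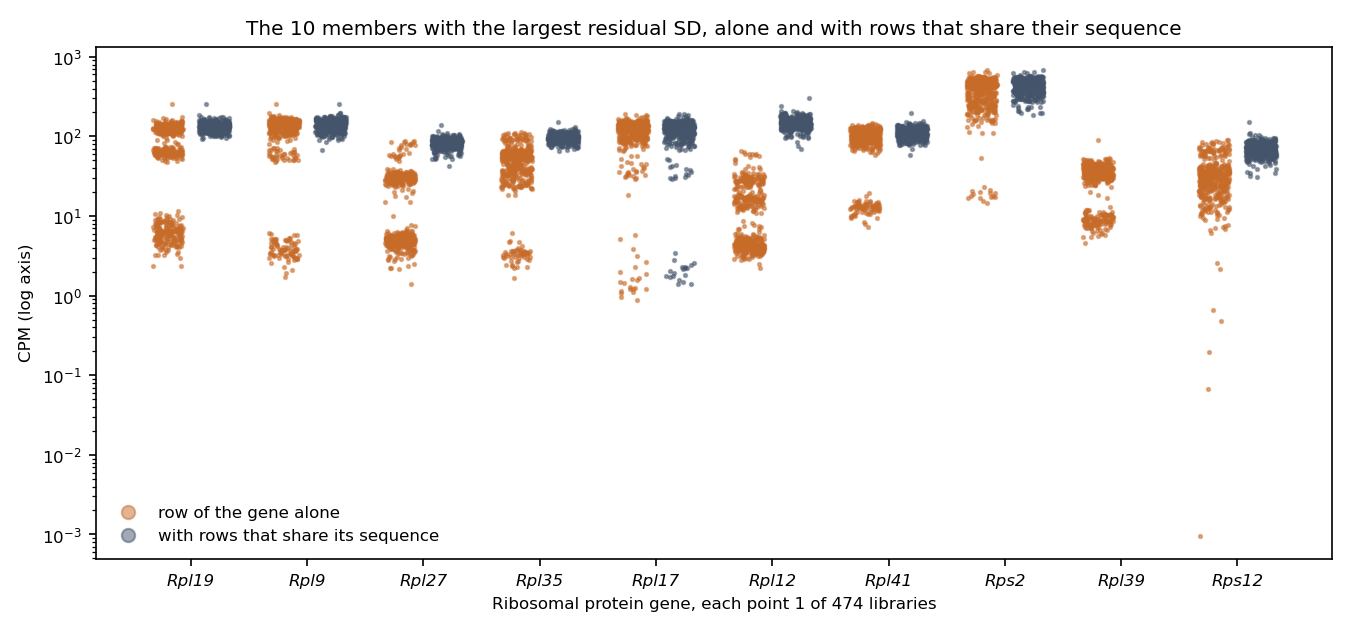
CPM (log axis) of the 10 ribosomal protein genes with the largest residual SD in each library, for the gene's row alone and, where any exist, with the rows that share its sequence. The bands seen in Rpl19, Rpl9, Rpl27 and Rpl12 alone run together into a single range with the sharing rows added, while Rpl17 keeps a low band and Rpl39 has no row past the 10% rule.

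The sex comparison was repeated with these sums, and 69 of 80 members were lower in males, as given above, with a median of -0.11. The 16 members that passed only with the sums all had a smaller standard error than alone, and differences from -0.16 (Rps16) to -0.05 (Rps25), with a median of -0.12. Rpl19 went from -0.13 ± 0.15 to -0.12 ± 0.01 (edgeR adjusted p = 9.23e-22), Rpl12 from -0.02 ± 0.12 to -0.12 ± 0.02 (edgeR adjusted p = 6.08e-12), Rpl5 from -0.11 ± 0.07 to -0.11 ± 0.01 (edgeR adjusted p = 2.91e-18) and Rpl35 from -0.19 ± 0.10 to -0.11 ± 0.01 (edgeR adjusted p = 1.44e-16). Rpl17 was at 0.00 ± 0.07 (edgeR adjusted p = 0.963), and Rpl24 went from -0.05 ± 0.03 to 0.02 ± 0.01 and did not pass (edgeR adjusted p = 0.0766). Rpl3l, Rps27, Rps27l and Rpl22 stayed at 0.01, -0.03, -0.04 and -0.01 and did not pass. The smaller standard errors are those of the sums, and in Rpl12 and Rpl5 most of the sum comes from the sharing rows. These sums hold rows outside the member rule, and they, Rps16, Rps25 and Rpl24 were chosen after the values were seen.

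The spread between animals differed between the sexes in few members, and which ones passed rested on the scale. Of 80 members 2 were wider in males and 0 in females, where 1.75% of all genes were wider in males and 3.8% in females. On log2 CPM 1 member was wider in males, against 1.31% of all genes (2.35% in females). With deviations from group means 2 were wider in males and 3 in females, against 2.33% and 5.92%. These counts were near the shares of all genes and were not read as a result about the members. The absolute deviation of the score from its group median was larger in males for Rps7 (0.213 against 0.155 in females, limma adjusted p = 0.00663) and Rps25 (0.371 against 0.307, limma adjusted p = 0.0241), both named after their values were seen. At an unadjusted p under 0.05 there were 6 members, against 3118 of all 18823 genes.

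Across animals the members' levels were mostly weakly and positively correlated. On scores with sex and generation but not library block removed, Pearson's r had a median of 0.20 over the 3160 pairs of 80 members, was above 0 in 93.2% and above 0.5 in 16.6%. These correlations share libraries and depth and are given as a description. Each member's r with the mean of the other 79 had a median of 0.48, and 20 members were above 0.7 and 25 below 0.3. The highest were Rps10 (0.82), Rps27a (0.81) and Rpl18 (0.81), and the closest pair was Rps21 with Rpl18 (0.88). The lowest were Rpl5 (-0.05), Rpl12 (0.07), Rpl41 (0.07), Rpl17 (0.07) and Rpl35 (0.07). All 5 have sharing rows, as 65 of the 80 members do, and 4 of the 5 are among the 7 of largest SD. Outside the members, the 10 genes whose scores had the highest Pearson r with the members' mean were Rack1 (0.83), Gm10443 (0.72), Gm11808 (0.71), Gm7536 (0.66), Bloc1s1 (0.64), Pfdn5 (0.62), Romo1 (0.62), Eif3h (0.62), Eif3i (0.61) and Nme2 (0.61), over all libraries. Of these, Gm10443 and Gm7536 are rows that share sequence with Rps28 and Rpl27a, so they are not independent of the members.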

How the data were processed

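RNA-seq of skeletal muscle was read from tables of expected counts and of a score per gene and library. Polyadenylated RNA was sequenced in pairs according to the study's methods, and the authors aligned both mates as single reads to the pooled transcripts of the 8 founders and estimated expected counts with EMASE in GBRS, which they deposited without normalisation (genome build GRCm38 per the labels). A fragment can thus add up to 2 counts, and reads shared by similar sequences are divided between rows. The deposited score is the variance stabilising transform of DESeq2 made by the authors, which narrows differences of the typical gene against log2, as given above. Aligner and counter versions and the use of strand are not given in the sources used here. Wave, a further covariate of the study, is not in the labels. Columns were matched to samples by animal number. For 2 pairs of animals (DO048 with DO308, DO309 with DO310) the columns are swapped against the sample order, and the column names were followed.

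Expected counts were rounded and fitted over the whole table in R 4.3.3 with edgeR 4.0.16 (TMM, filterByExpr with a minimum count of 10, 18823 genes kept and 1789 removed, quasi-likelihood F-test, Benjamini-Hochberg adjustment over all genes, threshold 0.05). SE is the absolute log2 difference over the square root of F. Sex was tested with generation as covariate, generation with sex, blocks with both, and spread with limma 3.58.1 on deviations of the score from group medians. Blocks start after a gap of over 3 library numbers or after 96 numbers. P-values measure the spread between animals, each with a single library. DESeq2 1.42.0 was an alternative. The scripts were tested on simulated data. Tables were read with data.table version 1.17.8, and other steps ran in Python 3.11.15 (scipy 1.17.1, matplotlib 3.10.9, pandas 2.3.3, numpy 2.4.6).

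The members and gene lists were chosen with earlier results of these data known. Named were the 8 largest differences in each direction past the threshold (none was higher), the paralogue pairs and X-linked members, the 5 highest and lowest levels, the 5 largest and smallest residual SDs, the 5 largest ranges between blocks and generations, the 5 lowest correlations with the other members, the 10 genes most like their mean, and the 3 largest differences of each pathway list. Adding -ps rows, adding sequence-sharing rows (at least 10% of a member's 50-base words, GENCODE M21 transcripts, 245 rows added) and leaving out block 1 or DO191 were chosen after the data were seen. RefSeq promoters matched 59 of 81 members. Total counts ran from 35.9 to 165.7 M per library.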

Additional observations from a re-analysis of the deposited data

How the results depend on the processing

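No paired analysis was possible because each animal gave 1 library and the groups share no replicate number. The number of members called for sex was 35, 34, 19, 30 and 18 within generations 17, 18, 19, 21 and 23, and 23, 33, 27, 34 and 32 within blocks 1 to 5, where fewer samples were fitted and 22.7, 23.4, 20.6, 24.8 and 25.3%, and 19.7, 22.7, 24.4, 28.6 and 23.2%, of all genes were called, and these include Rps4l in generation 23 and Rps14 in block 2 as higher in males. Over all groups the count stayed within 1.5 times that reported, and of the 53 members 44 to 53 kept the call. For the blocks, 33 members passed without block 1. The spread test called 1 member on log2 CPM and 5 with deviations from group means (2 wider in males, 3 wider in females), and the cause was not tested. Rpl3 with Rpl3l had r = 0.0435 within males, 0.0495 within block 1 and -0.16 within block 3 (permutation p = 0.503, 0.631 and 0.112). Of the 53 members called, 5 changed sign within a generation or block, Rpl39 (0.0132, log2, male minus female) and Rpsa (0.00949) within block 2, Rpl15 (0.0212) within block 3, Rpl23a (0.0149) within generation 21 and Rpl35a within generation 23 (0.0259) and block 3 (0.00268), none past the threshold. Changes of sign follow for those of 25 listed members that had not passed. Other named members that had not passed, such as Rpl9, Rps2, Rps12, Rpl41 and Rpl6l, also changed sign in some fits and are not listed. Rpl3l was at -0.0207 with totals unscaled, -0.0147 with cell-type scores as terms, -0.0186 within generation 21, -0.0207 within block 2 and -0.00341 within block 4. Rps27 was at 0.0243 within generation 19, 0.0142 within generation 23 and 0.00872 within block 3, and Rps27l at 0.00142 within block 3. Rps4l was at -0.18 within generation 17 and -0.0701 within block 1. Rpl22 was at 0.00743 with cell-type scores, 0.0246 and 0.0407 within generations 19 and 23, and 0.00473 and 0.0390 within blocks 2 and 3. Rpl19 was at 0.138, 0.173 and 0.197 within generations 17 and 18 and block 2. Rpl12 was at 0.000928 without DO191, 0.0178 with block as a term, 0.0507 with cell-type scores, 0.0296 with limma, 0.199, 0.144 and 0.0331 within generations 18, 19 and 23, and 0.465 and 0.297 within blocks 1 and 5. Rpl5 was at 0.171 and 0.0776 within generations 19 and 23. Rpl17 was at -0.0167 with totals unscaled, -0.000486 with cell-type scores, -0.0503 and -0.0538 within generations 19 and 23, and -0.0910 within block 4. Rps16 was at 0.0111 and 0.278 within generation 17 and block 5. Rps25 was at 0.000923 with cell-type scores, 0.106 within generation 17, and 0.0553 and 0.0143 within blocks 3 and 4. Rpl24 was at 0.0240 with sharing rows added, 0.0866 within generation 23 and 0.0840 within block 3. Of the other values of these and the remaining members computed this way, 25 in all, 52 lost the call and 26 gained it, and the rest kept direction and side of the threshold. The cause was not tested. Depth limits Rpl39l and Rpl6l, at medians of 2 and 3.79 counts.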
